A study of Mus musculus with 12 samples.

Results

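The 76 genes of the cytosolic ribosomal proteins were followed through single-cell RNA-seq of the mouse hippocampus. They were chosen by name, from all 32285 genes of the count matrix, as symbols made of Rpl, Rps or Rplp and a number, with an optional final a or x, plus Rpsa. Of these, 46 belong to the large ribosomal subunit and 30 to the small one, and all 76 had counts and passed the filter on low counts in each of the 9 cell types tested. The cells came from 9-week-old female C57/BL6J mice, and every mouse of an arm had received either cisplatin, a chemotherapy drug whose platinum binds to DNA, or phosphate-buffered saline (PBS). The groups, called Cisplatin stim, Cisplatin nonstim, PBS stim and PBS nonstim, had 3 libraries each. Stimulated mice were shown 40 Hz flickering light with pulsed sound for 1 h on each of 21 days, begun with the first cisplatin injection, and hippocampi were taken on day 22. Replicate 1 of a group held 2 hippocampi of 1 mouse and replicates 2 and 3 pooled 4 hippocampi of 2 mice, so a library is not always a single animal.

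A cytosolic ribosome has a small subunit, which reads the mRNA, and a large subunit, which joins amino acids. Each subunit is built from ribosomal RNA and a fixed set of proteins, most of them made in equal numbers, so that cells transcribe and translate these genes in concert. Their mRNAs are short and abundant, and most start in a run of pyrimidines, the 5′ terminal oligopyrimidine (TOP) motif, through which mTORC1 and LARP1 control their translation. Several also act outside the ribosome. Free Rpl5 and Rpl11, for example, bind the p53 inhibitor Mdm2 when ribosome assembly is disturbed.

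The 12 libraries held 19834 cells and 122182983 unique molecular identifiers (UMIs, counts of captured mRNA molecules), with 611 to 2772 cells and 3964338 to 17656020 UMIs each. The authors' 12 cell types were used as deposited. In each of the 9 tested types the summed counts of its own marker genes were higher than in any other tested type, by a ratio that ranged from 1.62 for endothelium over pericytes to 187.5 for choroid plexus. Names of replicate 1 libraries begin with the prefix 20 and those of the other 8 with 21, which is the meaning of first and second batch here. The second-batch PBS libraries stood apart in transcripts that resemble ribosomal RNA, as given below. No deposited cell reached 25% ribosomal UMIs in the authors' own quality table, and the highest stood at 24.998%. Cells over 22% made up 3.99% of cisplatin and 1.69% of PBS microglia. They made up 4.04% and 2.17% of neurons, and 24.3% and 17.3% of immune cells. Whether cells with a higher percent had been left out, and the part of that in the shares below, was not tested. In all, 56 cell barcodes occurred in a second library.

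The start regions of the genes were read from RefSeq for build GRCm38.p6, which matched 56 of the 76 members. Windows of 80 bases, from 60 before to 20 after the annotated start, are shown for 4 members with high microglial fold changes under cisplatin (Rpsa, Rplp0, Rps19 and Rpl14) and for 2 that had values near 0 in at least 1 comparison (Rpl35 and Rpl31). They are printed 5′ to 3′ on the strand of the gene, and capitals mark a run of at least 7 pyrimidines that reaches within 10 bases of the start.
Rpsa, chr9:120127706-120127785, plus strand: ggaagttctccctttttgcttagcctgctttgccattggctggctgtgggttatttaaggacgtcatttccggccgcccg
Rplp0, chr5:115559407-115559486, plus strand: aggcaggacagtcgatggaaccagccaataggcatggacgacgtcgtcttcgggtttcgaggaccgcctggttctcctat
Rps19, chr7:24884532-24884611, plus strand: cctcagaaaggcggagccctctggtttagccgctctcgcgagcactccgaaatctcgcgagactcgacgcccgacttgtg
Rpl14, chr9:120571457-120571536, plus strand: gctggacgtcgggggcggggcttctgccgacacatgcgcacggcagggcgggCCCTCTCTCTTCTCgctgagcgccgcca
Rpl35, chr2:39005112-39005191, minus strand: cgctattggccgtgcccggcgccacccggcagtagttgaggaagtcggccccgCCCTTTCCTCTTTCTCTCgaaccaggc
Rpl31, chr1:39367791-39367870, plus strand: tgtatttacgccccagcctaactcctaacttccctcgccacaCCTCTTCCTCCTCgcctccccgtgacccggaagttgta
Such a run was found in 28 of 56 members, against 19.55% of all 27025 promoters in the table. It was present in Rpl14, Rpl35 and Rpl31 and absent from the windows of Rpsa, Rplp0 and Rps19. The word CCGGAAG, the core bound by ETS-family factors, was searched on both strands of the 300 bases from 250 before to 50 after the start. It stood in 22 of 56 members (39.29%), against 9.12% of all promoters. The YY1 word AAGATGGC was found in 7.14% of members, against 2.88% of all promoters, and the TATA word TATAAA in 8.93%, against 14.16%. CCGGAAG and AAGATGGC can overlap by the letters AAG, and a match is only a match of letters in the annotated window.

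Ribosomal protein genes took 7.95% of all UMIs, with 6.27% to 9.38% in single libraries, and their share depended on the cell type. Of the 9 tested types, immune cells gave the highest median share over libraries, 14.6% (12.4% to 17.8%), followed by microglia, the resident macrophages of the brain, at 12.3% (10.6% to 15.9%) and endothelium at 10.6% (9.38% to 11.1%). The immune value joined cluster 14, at a median of 18.8%, and cluster 15, at 12.4%, close to microglia. Pericytes, choroid plexus and neurons had medians of 9.26%, 8.98% and 7.35%. Oligodendrocyte precursors (OPCs) were at 5.45%, oligodendrocytes at 4.91% (4.06% to 5.2%) and astrocytes at 3.59% (3.07% to 4.02%). Among types with too few libraries for a test, progenitors had a median of 13.9% over 6 libraries and stood above microglia in 5 of 6, and fibroblasts had 9.98% over 3. Ranges of neighbours in the order of tested types overlapped, except between oligodendrocytes and astrocytes. Within a library, however, microglia stood above endothelium in 12 of 12 cases and OPCs above oligodendrocytes in 11 of 12. These levels describe types that the authors defined from the same counts and were not tested.

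**Figure D1:**
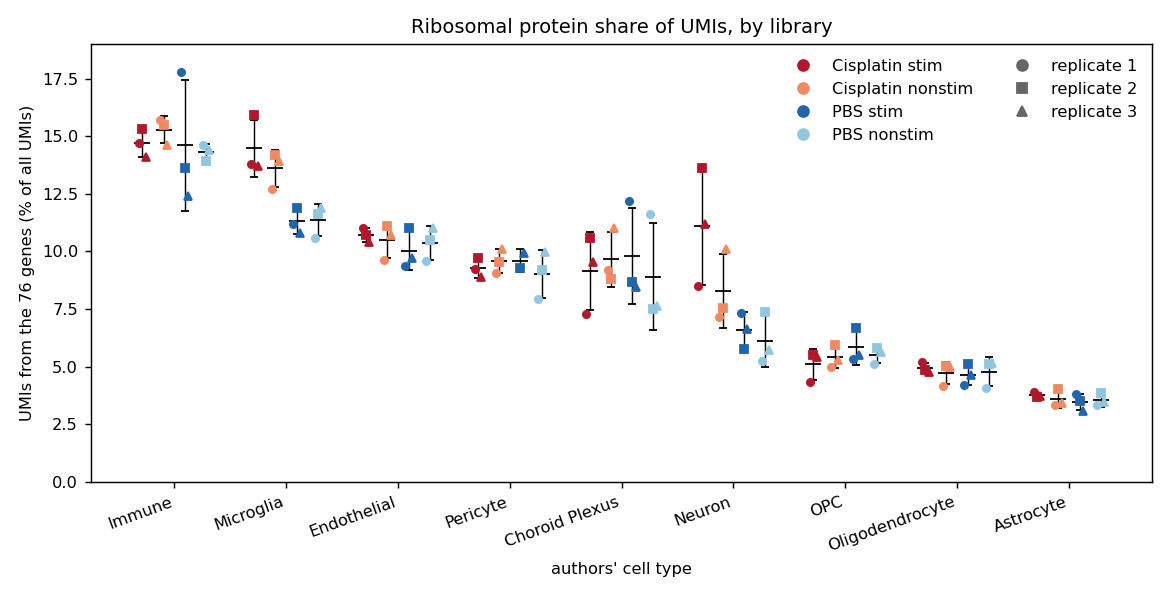
Percent of UMIs from the 76 ribosomal protein genes (y axis) in each of the authors' cell types that was tested (x axis), 1 point per library with the marker shape giving the replicate, and the mean ± SD of each group (n = 3, fewer where a library lacked the type). In microglia the 6 cisplatin libraries lie at 12.7% to 15.9% and the 6 PBS libraries at 10.6% to 11.9%.

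Most members followed the same order of types. Immune cells had the highest level of 63 of the 76 genes and astrocytes the lowest of 70. On the scale of log2(CPM + 1), with CPM taken as UMI counts scaled to a common total for each library and type, the level of a member varied between types with an SD of 0.45 to 0.96. The widest spread belonged to Rps29, a zinc-binding protein of the small subunit (SD 0.96), followed by Rps12 (0.95), Rpl10 (0.93), Rps4x (0.90) and the stalk protein Rplp1 (0.89). Rps29 had a median of 9849.9 CPM in immune cells (7816.7 to 12784.6) and 1606.2 CPM in oligodendrocytes (1272.7 to 1890.4), a 6.24-fold difference of means on the log scale. Narrow spreads were found for Rpl31 (SD 0.45), Rpl24 (0.47), Rpl14 (0.48) and Rps2 (0.53). Rpl31, of the large subunit, differed only 2.21-fold between its highest type, endothelium, and its lowest, oligodendrocytes.

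A few members departed from the shared order, and they are named after their values were seen. Rpl13, a large-subunit protein, was highest in OPCs, with a median of 4585.9 CPM (3268.8 to 5200.3 over 12 libraries). The same gene had medians of 2608.5 CPM in immune cells, 983.1 CPM in oligodendrocytes and 748.5 CPM in astrocytes. The lowest OPC library, at 3268.8 CPM, was below the highest immune library, at 3291.6 CPM, so the ranges of these 2 types overlapped. Rpl41, the shortest ribosomal protein, was highest in choroid plexus, with a median of 6053.5 CPM, and Rpl38 was highest in endothelium, with 3461.9 CPM. Rps7 tracked the family most closely. Its share of the summed CPM of all 76 members, on the log2 scale, had an SD over types of 0.06.

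**Figure D2:**
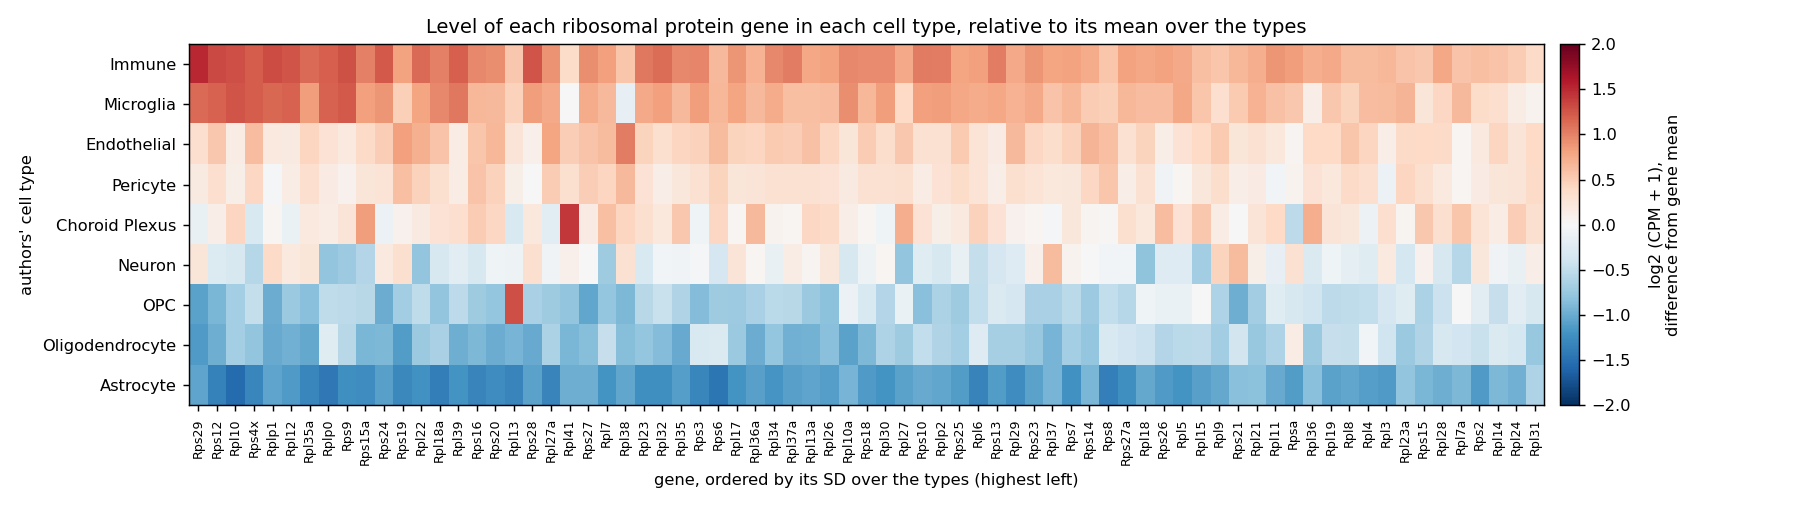
Level of 73 of the 76 genes (columns) in each tested cell type (rows), as the mean over libraries of log2(CPM + 1) minus the gene's mean over types. Immune cells and microglia are above the gene mean for nearly every member and astrocytes below it, while Rpl13 peaks in OPCs at 12.15 and Rpl41 in choroid plexus at 12.53.

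The first question of the design was what cisplatin did to these genes without stimulation, and calls were found in microglia. There the family's share of UMIs was 12.7%, 14.2% and 13.9% in Cisplatin nonstim libraries, against 10.6%, 11.6% and 11.9% in PBS nonstim libraries. The groups did not overlap, and they averaged 13.6% ± 0.775 and 11.4% ± 0.696 (SD, n = 3 each). By edgeR's quasi-likelihood test with Benjamini-Hochberg adjustment over all genes of the type, 12 of 76 members (15.8%) rose under cisplatin and none fell. Of all 9903 genes tested in microglia, 2.21% were called higher and 1.39% lower. In the 8 other types edgeR called 0 members, although 112 of 684 member tests over all 9 types had an unadjusted p under 0.05. That is 16.4%, against 14.5% of all tests, and 48 of the 112 lay in microglia. Over the 9 types 0.938% of all tests were called higher and 0.709% lower. The median log2 fold change of the 76 was 0.27 in microglia, with 74 above 0, against a median of 0.004 over all genes. Groups did not overlap for 57 members, each of them higher in cisplatin, while 9.05% of all genes were higher without overlap.

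With stimulation in both arms the pattern recurred in other mice. Microglia of Cisplatin stim libraries held 13.8%, 15.9% and 13.7% ribosomal protein UMIs, against 11.2%, 11.9% and 10.8% in PBS stim libraries. The means were 14.5% ± 1.25 and 11.3% ± 0.523 (SD, n = 3 each), again without overlap. Here 37 of 76 members (48.7%) rose by edgeR's test and none fell, where 3.15% of all genes were called higher and 2.1% lower. Over the 9 types 64 member tests were called higher and 1 lower, against 2.17% and 1.73% of all tests. The median log2 fold change was 0.35, with 75 members above 0, and 54 members were higher without overlap, against 8.75% of all genes. All 12 members called without stimulation were among the 37, which is 100% of the first set and 32.4% of the second. The 2 comparisons share no library, though they come from 1 fit with 1 estimate of the spread, and over the 76 genes their log2 fold changes had a Pearson r of 0.77 and a Spearman rho of 0.78. Genes are not independent replicates, so no p is attached. Over both arms, 45 of 76 members (59.2%) had all 6 cisplatin libraries above all 6 PBS libraries, as had 1.77% of all genes.

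**Figure D3:**
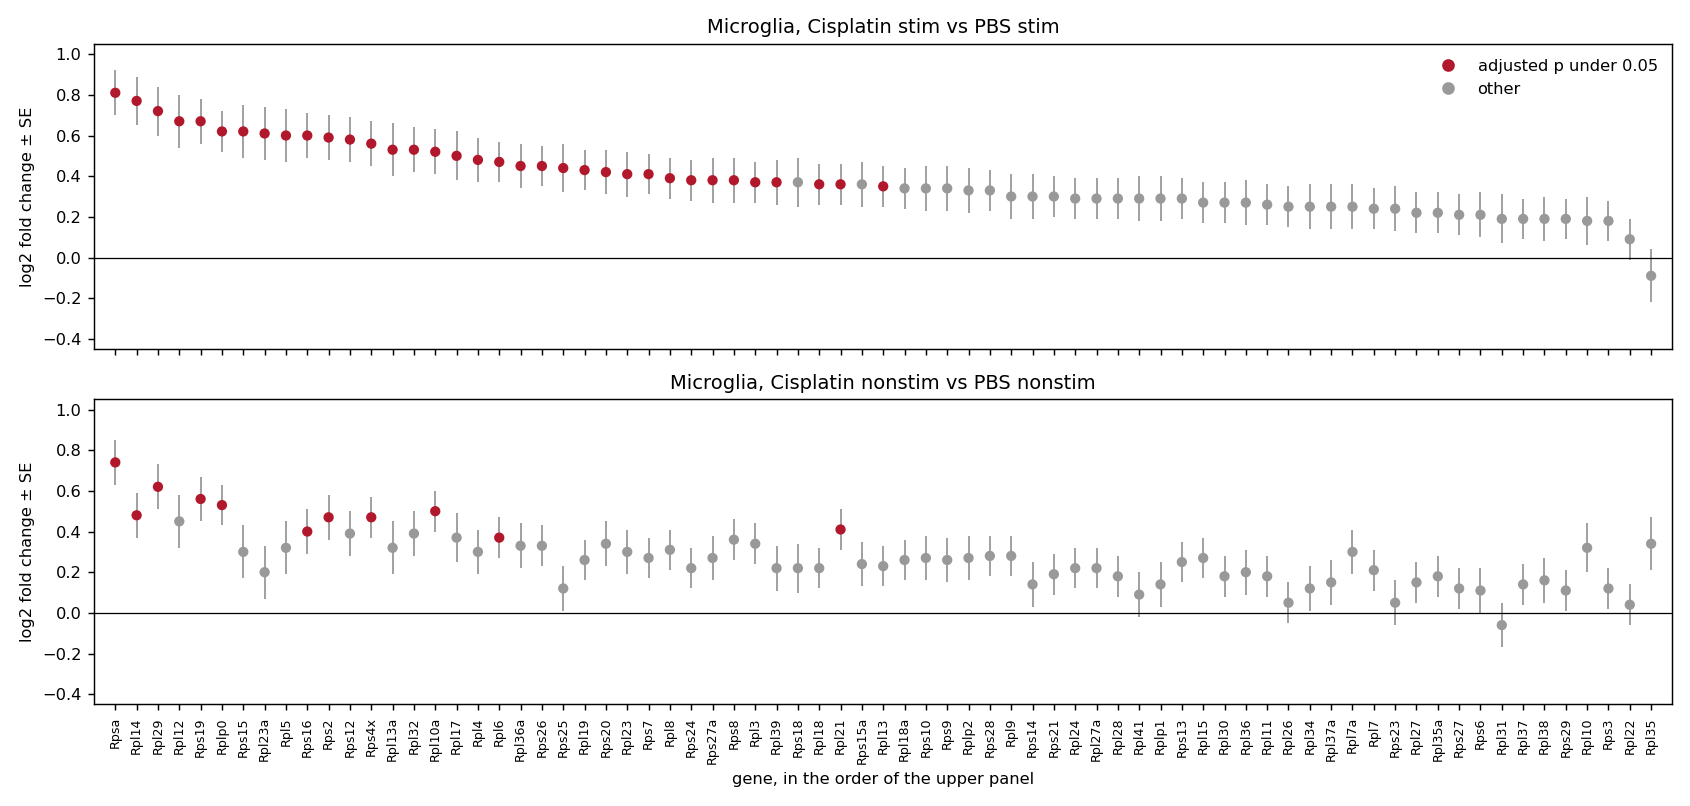
Log2 fold change of 73 of the 76 genes in microglia, as Cisplatin stim over PBS stim and as Cisplatin nonstim over PBS nonstim (1 panel each), with bars of 1 SE and called members marked (edgeR, adjusted p under 0.05). The values run from −0.09 to 0.81 with stimulation and from −0.06 to 0.74 without it.

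Rpsa led both comparisons. It is a small-subunit protein, also known as the precursor of a laminin receptor, on chromosome 9 (120127689 to 120132369, GRCm38). Its TMM-normalized level in microglia was 2015.9, 1763.8 and 1368.5 CPM in Cisplatin stim libraries, against 1226.6, 899.0 and 822.9 CPM in PBS stim libraries. It was 1596.0, 1540.1 and 1384.3 CPM in Cisplatin nonstim libraries, against 1064.3, 845.0 and 822.6 CPM in PBS nonstim libraries. Every cisplatin library was above every PBS library. The log2 fold change was 0.81 ± 0.11 with stimulation (SE, edgeR adjusted p = 0.00016) and 0.74 ± 0.11 without it (edgeR adjusted p = 0.00078).

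Rpl29, a heparin-binding protein of the large subunit (chromosome 9, 106429454 to 106431568), had 1125.0, 1318.6 and 1026.9 CPM in Cisplatin stim microglia and 799.7, 703.1 and 624.8 CPM in PBS stim microglia. Without stimulation it had 1033.7, 1091.6 and 1123.0 CPM in cisplatin libraries and 800.4, 664.3 and 660.2 CPM in PBS libraries. Again the 6 cisplatin values lay above the 6 PBS values. The log2 fold changes were 0.72 ± 0.12 (edgeR adjusted p = 0.000743) and 0.62 ± 0.11 (edgeR adjusted p = 0.00378). Of its 31-base words, a fraction of 0.577 also occurs in other annotated genes, so part of its count could be shared with copies. Without the second-batch PBS libraries its log2 differences were 0.47 and 0.37.

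Rps19, the small-subunit protein most often mutated in human Diamond-Blackfan anaemia (chromosome 7, 24884371 to 24889806), had 1942.3, 1933.6 and 1500.0 CPM in Cisplatin stim microglia, against 1236.1, 1123.9 and 1016.5 CPM in PBS stim microglia. Without stimulation it had 1622.9, 1679.0 and 1652.5 CPM in cisplatin libraries, against 1147.2, 1086.8 and 1125.2 CPM in PBS libraries. The nonstimulated libraries were close within each group, with means of 1651.5 ± 28.1 and 1119.8 ± 30.6 CPM (SD, n = 3 each). Its log2 fold changes were 0.67 ± 0.11 (edgeR adjusted p = 0.000697) and 0.56 ± 0.11 (edgeR adjusted p = 0.0046). Rplp0, the base of the large-subunit stalk that binds elongation factors (chromosome 5, 115559467 to 115563727), had 2289.6, 1883.9 and 1658.2 CPM in Cisplatin stim and 1430.6, 1239.0 and 1114.3 CPM in PBS stim microglia. Its nonstimulated values were 1798.1, 1787.1 and 1667.5 CPM with cisplatin and 1399.2, 1125.0 and 1133.7 CPM with PBS, and the log2 fold change there was 0.53 ± 0.10 (edgeR adjusted p = 0.00467).

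Rpl14, of the large subunit (chromosome 9, 120571444 to 120574654), ranked second by adjusted p with stimulation. It had 1055.1, 995.1 and 808.3 CPM in Cisplatin stim microglia, against 702.5, 544.7 and 447.6 CPM in PBS stim microglia, a log2 fold change of 0.77 ± 0.12 (edgeR adjusted p = 0.000418). Without stimulation it had 859.4, 799.6 and 798.2 CPM with cisplatin, against 663.8, 516.5 and 590.5 CPM with PBS, a log2 fold change of 0.48 (edgeR adjusted p = 0.0215). Others called without stimulation included Rpl10a (log2 fold change 0.50), Rps4x and Rps2 (0.47 each), Rpl21 (0.41), Rps16 (0.40) and Rpl6 (0.37).

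**Figure D4:**
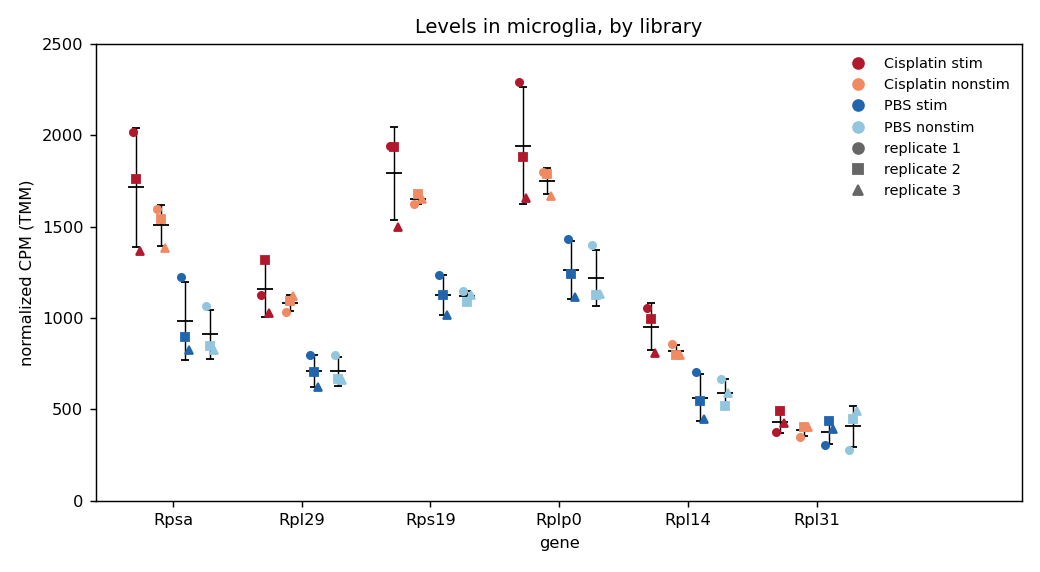
Normalized level (CPM, y axis) of 6 ribosomal protein genes in microglia, 1 point per library with the marker shape giving the replicate, and the mean ± SD of each group (n = 3). The cisplatin libraries lie above the PBS libraries for Rpsa, Rpl29, Rps19, Rplp0 and Rpl14, and the groups overlap for Rpl31.

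Other members were called in neither comparison. Rpl31 had 375.6, 493.3 and 426.6 CPM in Cisplatin stim microglia, against 306.6, 436.0 and 393.4 CPM in PBS stim microglia. Its nonstimulated values were 346.9, 403.8 and 406.0 CPM with cisplatin, against 278.5, 450.1 and 491.8 CPM with PBS. The groups overlapped in both arms, and the log2 differences were 0.19 ± 0.12 and −0.06 ± 0.11. Rpl35, a large-subunit protein near the exit of the peptide tunnel, had 1453.4, 1161.8 and 798.7 CPM in Cisplatin stim microglia, against 1256.3, 1185.3 and 1145.6 CPM in PBS stim microglia (log2 difference −0.09, edgeR adjusted p = 0.764). Its nonstimulated libraries did not overlap, at 1408.5, 1399.2 and 1317.5 CPM with cisplatin and 1057.7, 1028.8 and 1163.9 CPM with PBS, but the log2 difference of 0.34, above the members' median of 0.27, was not called (edgeR adjusted p = 0.160).

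The medians of both subunits were close. Without stimulation the 46 large-subunit members had a median log2 fold change of 0.26 with 6 called, and the 30 small-subunit members 0.27 with 6 called. With stimulation the medians were 0.31 with 21 called and 0.38 with 16 called. The size of a member's change was only loosely related to its level, with Pearson r of −0.18 with stimulation and −0.06 without it over the 76 genes. Members with a pyrimidine run at the start (28 genes) had median log2 fold changes of 0.35 with stimulation and 0.23 without it, against 0.31 and 0.28 in the 28 members without such a run. The 22 members with CCGGAAG had medians of 0.32 and 0.22, against 0.35 and 0.28 in the 34 without it. The 17 members that share a fraction over 0.5 of their 31-base words with other annotated genes had medians of 0.38 and 0.30, against 0.34 and 0.26 in the other 59.

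Other measures moved with the microglial values. The share of ribosomal RNA-like transcripts (Gm42418, AY036118 and Lars2) in microglia was 0.251%, 0.488% and 0.542% in Cisplatin stim libraries, against 0.314%, 2.80% and 1.55% in PBS stim libraries. It was 0.253%, 0.324% and 0.374% in Cisplatin nonstim libraries, against 0.421%, 1.93% and 3.04% in PBS nonstim libraries, so that all 4 second-batch PBS libraries stood above the rest. With this share as a covariate, edgeR called 16 members with stimulation and 0 without it, with medians of 0.41 and 0.33. Of 9903 genes it called 82 and 11 higher. Without those 4 PBS libraries edgeR called 0 members in either comparison, and the medians were 0.28 and 0.33, with 74 and 75 of 76 members above 0. Of 10300 genes it called 4 and 5 higher there. Within the first batch alone, with 1 library a group, the family share in microglia was 13.8% against 11.2% with stimulation and 12.7% against 10.6% without it. Summed microglial markers were 21055.5 to 23820.5 CPM in cisplatin and 21891.1 to 25302.0 CPM in PBS microglia. Summed oligodendrocyte markers were 327.4 to 1306.2 CPM against 266.9 to 913.1 CPM, and summed choroid plexus markers 149.1 to 1555.7 CPM against 2.7 to 487.8 CPM. The mitochondrial share of microglia was 9.76%, 3.67% and 3.12% in Cisplatin stim libraries, against 5.22%, 2.34% and 1.96% in PBS stim libraries. Without stimulation it was 7.67%, 2.95% and 3.24% with cisplatin, against 5.46%, 1.99% and 2.35% with PBS, so it was higher with cisplatin within each batch. The part of these measures in the result was not tested.

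Values within the authors' larger microglial cluster were as high as in all microglia. This cluster, number 0, held 68.1%, 64.9%, 67.8% and 65.3% of microglia in Cisplatin stim, Cisplatin nonstim, PBS stim and PBS nonstim. Within cluster 0 the family share was 14.9%, 16.1% and 13.9% in Cisplatin stim, against 12.1%, 11.7% and 10.9% in PBS stim libraries. There edgeR called 38 members, among 244 of 9522 genes called higher. Without stimulation the share was 13.5%, 14.5% and 13.9% with cisplatin, against 11.4%, 11.4% and 11.9% with PBS. Here edgeR called 12 members, among 158 of 9522 genes called higher. Within cluster 5 alone edgeR called 14 members with stimulation and 2 without it, with medians of 0.35 (75 of 76 above 0) and 0.18 (71 of 76). Of 6136 genes it called 67 and 65 higher. The shares there overlapped between the groups when batches were pooled. Within the first batch they were 10.3% in Cisplatin stim and 7.35% in PBS stim, and 8.27% in Cisplatin nonstim and 7.32% in PBS nonstim. In the second batch they were 14.6% and 13.1% in Cisplatin stim, against 12.5% and 10.7% in PBS stim, and at least 13.1% in both Cisplatin nonstim libraries, against at most 12.1% in both PBS nonstim libraries. Single libraries weighed on the counts. Without Cisplatin nonstim replicate 2, 2 of the 12 members were still called, and without Cisplatin stim replicate 2, 9 of the 37. Counts also fell past 1.5 times without PBS nonstim replicate 2 (4), PBS nonstim replicate 3 (5) or Cisplatin nonstim replicate 3 (5) without stimulation, and without PBS stim replicate 3 (14) or PBS stim replicate 2 (21) with it. Without Cisplatin stim replicate 3 the count of 12 became 19. Rpsa and Rpl29 were called in all 12 fits that left out 1 library, in both comparisons. Rpl14, Rplp0, Rps16, Rps19, Rps2 and Rps4x were among those so called with stimulation.

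Neurons showed the same direction with larger and less even values. Their family share was 8.5%, 13.6% and 11.2% in Cisplatin stim libraries, against 7.33%, 5.78% and 6.65% in PBS stim libraries. Without stimulation it was 7.13%, 7.56% and 10.1% with cisplatin, against 5.24%, 7.37% and 5.73% with PBS, and these groups overlapped. In the stimulated comparison 21 of 76 members (27.6%) rose by edgeR's test and none fell, where 1.97% of 6561 genes were called higher and 0.305% lower. All 76 had a positive log2 fold change, with a median of 1.14 and a range from 0.68 (Rpl15) to 1.56 (Rpl29), while all genes had a median of −0.09. Without stimulation edgeR called 0 members, although all 76 were positive and the median was 0.69. An unadjusted p under 0.05 was reached by 45 members (59.2%), against 11.3% of all genes, and 0.0152% of all genes were called higher and 0.0% lower. The groups did not overlap for 74 members with stimulation and for 57 without it, each higher with cisplatin, against 9.25% and 8.22% of all genes. With library totals in place of TMM the stimulated median was 0.71, with 6 called, beside −0.51 for all genes. With the ribosomal RNA-like share as a covariate the stimulated median was 0.90, with 76 of 76 above 0, 69 at an unadjusted p under 0.05 and 0 called by edgeR. Of all 6561 genes, 747 were under that p and 2 were called higher. Of the 21 neuronal members, 14 (66.7%) were also called in stimulated microglia, which is 37.8% of the 37 there. Of all 76 members 48.7% were called in stimulated microglia. The 2 types come from the same libraries, so their calls are not independent.

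Among the neuronal members with the smallest adjusted p were Rplp0, Rpl18 and Rpl29. Rplp0 had 646.1, 813.6 and 738.4 CPM in Cisplatin stim neurons, against 358.0, 228.9 and 263.6 CPM in PBS stim neurons (log2 fold change 1.37 ± 0.28, edgeR adjusted p = 0.0154). Rpl18, of the large subunit, had 553.5, 763.3 and 690.1 CPM against 305.8, 249.5 and 305.2 CPM (1.21 ± 0.26, edgeR adjusted p = 0.0203). Both separated the groups fully. Rpl29 had 797.9, 1350.5 and 634.9 CPM in Cisplatin stim neurons, against 518.3, 194.6 and 268.2 CPM in PBS stim neurons (1.56 ± 0.36, edgeR adjusted p = 0.0249). All 3 lost their call without Cisplatin stim replicate 2, PBS stim replicate 2 or PBS stim replicate 3, and without any 1 of these edgeR called 0 neuronal members. Their log2 differences within cluster 10 and within cluster 12 were 0.81 and 0.62 for Rplp0, 0.77 and 0.72 for Rpl18, and 0.96 and 0.31 for Rpl29. The count was 7 without PBS nonstim replicate 2 or 3, 13 without PBS nonstim replicate 1, 33 without Cisplatin stim replicate 1, 41 and 66 without Cisplatin nonstim replicate 1 and 3, and 73 without PBS stim replicate 1.

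The neurons of the groups were spread in different proportions over the same clusters. Cluster 10, whose cells had a median mitochondrial share of 31.8%, held 74.8% of Cisplatin stim, 52.1% of Cisplatin nonstim, 37.9% of PBS stim and 28.8% of PBS nonstim neurons. Cluster 12, at a median of 13.9%, held 20.9%, 38.7%, 44.7% and 52.0% of them, and cluster 19 held 4.26%, 9.24%, 17.4% and 19.1%. These percents pool the cells of a group. By library, cluster 10 held 78.1%, 80.4% and 51.3% of neurons in Cisplatin stim and 68.1%, 23.1% and 27.3% in PBS stim, so the ranges overlapped. The family share was far higher in cluster 10, at 11.5%, 15.9% and 15.7% in Cisplatin stim and 12.4%, 9.67% and 12.5% in PBS stim libraries, than in cluster 12, at 2.91% and 1.61% in the 2 Cisplatin stim libraries with enough cells and 2.69%, 1.08% and 1.69% in PBS stim libraries. Within cluster 10 alone the median log2 fold change was 0.59 with stimulation (76 of 76 above 0) and 0.43 without it (74 of 76). Within cluster 12 alone it was 0.21 (59 of 76) and 0.49 (76 of 76), and edgeR called 0 members in either cluster. Of all 1910 genes in cluster 10 it called 0 higher with stimulation and 1 without it. Of all 5134 genes in cluster 12 it also called 0 and 1 higher. Summed astrocyte markers in neurons were 2236.0 to 10225.0 CPM with cisplatin and 1051.0 to 2047.1 CPM with PBS, without overlap, and summed neuronal markers 4328.2 to 17520.2 CPM against 7762.8 to 21196.2 CPM. The mitochondrial share of all neurons was 37.0%, 25.8% and 15.6% in Cisplatin stim, against 29.6%, 9.54% and 7.17% in PBS stim libraries. Without stimulation it was 27.4%, 25.2% and 26.3% with cisplatin, against 19.3%, 8.79% and 14.4% with PBS, without overlap. The part of these measures in the neuronal values was not tested.

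**Figure D5:**
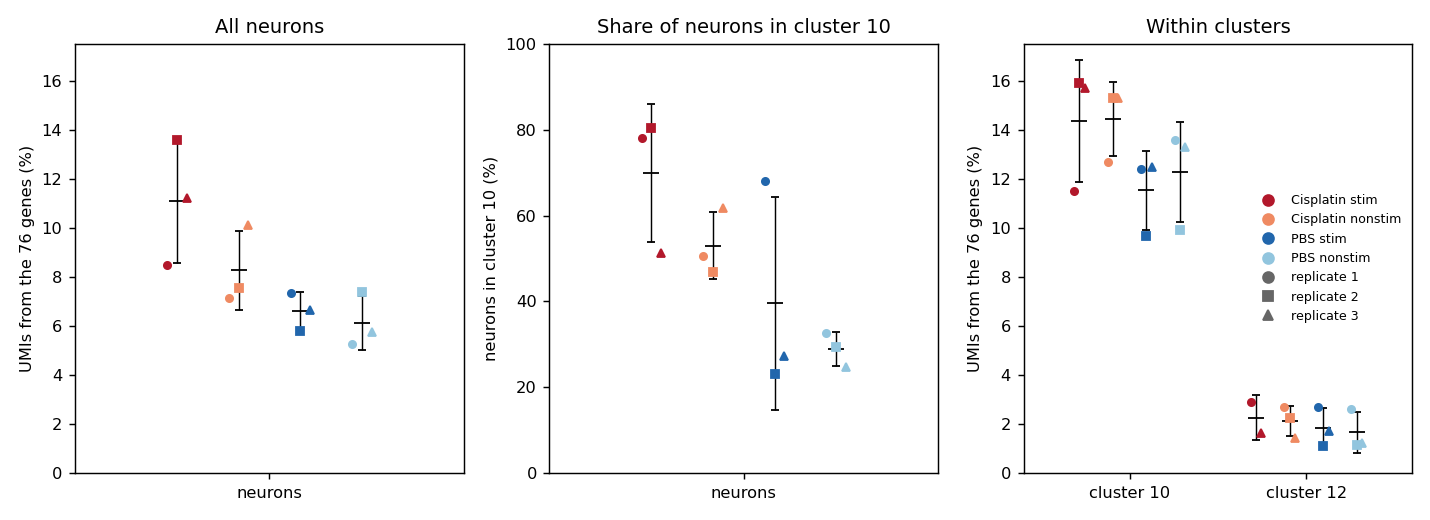
Ribosomal protein share of UMIs in all neurons (left), percent of neurons in the authors' cluster 10 (middle) and ribosomal protein share within clusters 10 and 12 (right), 1 point per library with the mean ± SD of each group. Cluster 10 holds 51.3% to 80.4% of neurons in Cisplatin stim and 46.8% to 61.7% in Cisplatin nonstim libraries. It holds 23.1% to 68.1% in PBS stim and 24.7% to 32.6% in PBS nonstim libraries, so the stimulated groups overlap. The share within a cluster differs less between groups than between clusters.

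The other types gave few calls, all of them with stimulation. In endothelium 2 of 76 members (2.63%) rose, close to the 1.69% of all genes called higher there. Rps28, of the small subunit, had 1802.8, 1798.4 and 1875.7 CPM in Cisplatin stim endothelium, against 1140.5, 1538.7 and 1256.3 CPM in PBS stim endothelium (0.48 ± 0.13, edgeR adjusted p = 0.0488), a call lost in 9 of the 12 fits that left out 1 library.

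Oligodendrocytes, the myelin-forming cells, had 4 called members (5.26%), below the 7.07% of all genes called higher in that type. Rpsa had 1198.6, 983.6 and 1017.6 CPM in Cisplatin stim oligodendrocytes, against 855.2, 887.5 and 806.5 CPM in PBS stim ones (log2 fold change 0.33 ± 0.10, edgeR adjusted p = 0.0286). Rpl10a had 245.3, 259.9 and 263.0 CPM against 199.4, 205.0 and 194.0 CPM (0.37 ± 0.12, edgeR adjusted p = 0.0374). Rplp1 had 1334.6, 982.4 and 999.5 CPM against 913.9, 889.9 and 753.5 CPM (0.37 ± 0.11, edgeR adjusted p = 0.0317). The groups were separate for these genes and overlapped for Rps15, at 481.6, 419.8 and 470.0 CPM against 423.4, 359.1 and 268.7 CPM (0.40 ± 0.12, edgeR adjusted p = 0.0312). Each of the 4 was lost in 3 to 6 of the 12 fits that left out 1 library. In the second batch alone edgeR called 4 members higher and 4 lower, with a median of 0.03. Of 10137 genes it called 810 higher and 821 lower. The log2 difference of Rplp1 was 0.23 without Cisplatin stim replicate 1, and that of Rps15 was 0.25 without PBS stim replicate 3.

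In OPCs most values were below 0. The median log2 fold change of the 76 members there was −0.15 for Cisplatin stim over PBS stim, 8 members were above 0, and 12 were lower without overlap, against 6.51% of all genes. Rpl35 was the only called member, where 0.221% of all genes were called lower, with 462.6, 388.5 and 318.6 CPM in Cisplatin stim OPCs and 505.0, 719.0 and 631.7 CPM in PBS stim OPCs. Its log2 fold change was −0.68 ± 0.17 (edgeR adjusted p = 0.0442), and the call was lost in 5 of the 12 fits that left out 1 library. Of the 31-base words of Rpl35 a fraction of 0.519 is shared with other measured genes, most often Gm2000, a predicted gene counted separately. In the nonstimulated arm OPCs had a median of 0.00 with 39 members above 0. 

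The choroid plexus, which secretes cerebrospinal fluid, gave values that differed between the batches. Over both batches its nonstimulated median was 0.32, with all 76 members positive and 28 higher without overlap, against 10.1% of all genes. None was called by edgeR, which called 0 of all 7952 genes higher and 0 lower there. An unadjusted p under 0.05 was reached by 4 members (5.26%), against 23.2% of all genes. The stimulated median was 0.22 with TMM normalization and −0.05 without it, where the median of all genes was −0.24. In the first batch the family share was lower with cisplatin, at 7.28% in Cisplatin stim against 12.2% in PBS stim and 9.17% in Cisplatin nonstim against 11.6% in PBS nonstim. In the second batch it was higher with cisplatin, at 10.6% and 9.54% in Cisplatin stim against 8.69% and 8.47% in PBS stim, and at 8.79% or more in both Cisplatin nonstim libraries against 7.48% and 7.63% in PBS nonstim. The cells lay in 2 clusters, and the median share was 11.6% in cluster 3 and 6.74% in cluster 4. Cluster 3 held 94.4% of first-batch PBS stim and 75.9% of first-batch PBS nonstim cells, against at most 54.5% in first-batch cisplatin libraries. In the second batch this cluster held 49.3% to 55.6% with cisplatin and 39.6% to 48.7% with PBS. Within cluster 3 the first-batch share was 10.8% in Cisplatin stim against 12.3% in PBS stim, and it was also lower with cisplatin without stimulation. Second-batch shares there overlapped between cisplatin and PBS. In cluster 4 second-batch shares were 7.09% to 8.14% with cisplatin and 5.09% to 6.4% with PBS. First-batch PBS libraries had no value in cluster 4. Fitted alone, the second batch gave 67 edgeR calls without stimulation (median 0.53) and 66 with it (median 0.46), where 18.3% and 14.4% of all genes were called higher. Without the second-batch PBS libraries the medians were −0.12 (11 of 76 above 0) without stimulation and −0.24 (10 of 76) with it. Those 4 libraries had 1.82% to 5.06% ribosomal RNA-like transcripts in choroid plexus. Their part in the values, and that of the clusters, was not tested. Astrocytes, immune cells and pericytes had stimulated medians of 0.13, 0.18 and 0.01, with 0 members called. Of all genes edgeR called 140 of 10163 higher and 124 lower in astrocytes. It called 22 of 6591 higher and 9 lower in pericytes, and 0 of 2395 either way in immune cells.

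The design also asked whether 40 Hz stimulation itself moved these genes, in cisplatin mice and in PBS mice. Over the 9 types edgeR called 0 of 684 member tests for Cisplatin stim over Cisplatin nonstim, where 0.145% of all tests were called higher and 0.0504% lower. DESeq2 and limma-voom also called 0, and 27 member tests (3.95%) had an unadjusted p under 0.05, against 6.67% of all tests. For PBS stim over PBS nonstim edgeR, DESeq2 and limma-voom again called 0, and 0.0% of all tests were called either way, with 1 member test at an unadjusted p under 0.05 (0.146%) against 2.87% of all. For the interaction of cisplatin and stimulation the 3 tools called 0, where edgeR called 0.0158% of all tests higher and 0.00863% lower, and 14 member tests (2.05%) had an unadjusted p under 0.05 against 4.88% of all. In microglia, PBS stim and PBS nonstim shares were 11.3% ± 0.523 and 11.4% ± 0.696, and 37 of 76 members were above 0. Cisplatin stim and Cisplatin nonstim shares were 14.5% ± 1.25 and 13.6% ± 0.775, with 74 of 76 members above 0, a median log2 difference of 0.10 and 1 member at an unadjusted p under 0.05 (1.32%, against 7.22% of all genes). Without Cisplatin stim replicate 2 that median was 0.02, with 54 of 76 above 0. The microglial interaction had 72 of 76 members above 0, with a median of 0.10, and without the second-batch PBS libraries −0.04, with 30 of 76 above 0. In neurons all 76 members were above 0 for Cisplatin stim over Cisplatin nonstim, with a median of 0.58 and 15 at an unadjusted p under 0.05 (19.7%, against 7.22% of all genes), beside the difference in cluster 10 given above. Within cluster 10 alone that median was 0.04 (52 of 76 above 0), and within cluster 12 alone −0.2 (16 of 76). Without Cisplatin stim replicate 2 the median in all neurons was 0.34 (75 of 76). There 1 member had an unadjusted p under 0.05, as had 340 of 7218 genes. A missed threshold with 3 libraries a group does not show that stimulation left these genes alike.

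Genes next to the family in function were read in the same fits. Of 4 ribosomal protein genes whose symbols fall outside the naming rule (among them Rack1, Fau and Rps3a1), 1 was called in microglia. Rack1, a scaffold protein on the small subunit, had 960.8, 953.8 and 848.4 CPM in Cisplatin stim microglia, against 683.5, 612.4 and 497.4 CPM in PBS stim microglia. Its log2 fold change was 0.63 ± 0.11 with stimulation (edgeR adjusted p = 0.00168) and 0.42 ± 0.11 without it (edgeR adjusted p = 0.0341). Of 11 elongation factor genes, Eef2, which moves the ribosome along the mRNA, rose in microglia by 0.77 ± 0.12 with stimulation (edgeR adjusted p = 0.000704) and by 0.65 ± 0.12 without it (edgeR adjusted p = 0.0039). Its libraries overlapped, at 900.4, 718.2 and 645.2 CPM in Cisplatin stim and 671.4, 362.6 and 355.3 CPM in PBS stim microglia. Eef1a1, which brings aminoacyl-tRNA to the ribosome, was the other elongation factor called, in the stimulated comparison (0.43, edgeR adjusted p = 0.0152). Of 39 initiation factor genes, 3 rose and 1 fell with stimulation, and 2 rose and 2 fell without it, with medians of 0.02 in both comparisons. Of all genes in microglia 3.15% were called higher and 2.1% lower with stimulation, and 2.21% and 1.39% without it. Eif3f, a subunit of the eIF3 complex, was higher in both comparisons (0.62 and 0.60) and the helicase gene Eif4a2 lower in both (−0.45 and −0.46).

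Hosts of small nucleolar RNAs, whose spliced transcripts also start in pyrimidine runs, gave 3 of 6 calls in stimulated microglia and 0 of 6 without stimulation. Gas5 had 539.8, 531.6 and 410.0 CPM in Cisplatin stim microglia, against 366.1, 324.2 and 310.0 CPM in PBS stim microglia (log2 fold change 0.57 ± 0.11, edgeR adjusted p = 0.00451). Snhg6 (0.71) and Snhg8 (0.43) were the others. Of 42 ribosome biogenesis genes, 0 were called with stimulation by edgeR, and without it the box C/D methyltransferase gene Fbl rose (0.48) and Sbds, which helps release Eif6 from the large subunit, fell (−0.45). Of 23 genes of mTORC1 and TOP mRNA control, Ddit4, an inhibitor of mTORC1, rose in microglia by 2.41 ± 0.22 with stimulation (edgeR adjusted p = 1.6e-06) and by 1.79 ± 0.25 without it (edgeR adjusted p = 0.000368). Only the values of Ddit4 are given from these 23 genes, and they do not stand for the list. The 78 mitochondrial ribosomal protein genes gave 0 edgeR calls in microglia, with medians of −0.02 and −0.05. These counts stand beside the same 3.15% of all genes called higher and 2.1% lower with stimulation and 2.21% and 1.39% without it.

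Rps27rt, a retrotransposed copy of Rps27, lies outside the rule and gave the one call in the interaction among these paralogs. In neurons it had 55.5, 109.0 and 110.4 CPM in Cisplatin stim libraries and 16.1, 40.1 and 22.0 CPM in Cisplatin nonstim libraries. It had 7.46, 25.2 and 20.8 CPM in PBS stim libraries and 32.5, 77.2 and 35.7 CPM in PBS nonstim libraries. The interaction of cisplatin and stimulation was 3.20 ± 0.55 on the log2 scale (edgeR adjusted p = 0.0321), while for Rps27 itself it was 0.41 ± 0.50 (edgeR adjusted p = 1). A fraction of 0.924 of the 31-base words of Rps27rt is shared with other measured genes, most often Rps27. Reads of these 2 genes can hardly be told apart, and the value is uncertain. Of the other paralogs in microglia, Rpl22l1 was called with stimulation (0.40, edgeR adjusted p = 0.0415).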

How the data were processed

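Libraries were made from perfused, enzymatically dissociated hippocampi with 10x Genomics 3′ v3.1 chemistry, per the labels' protocols. The submitters' processing notes name Cell Ranger 5.0.0, Scanpy and mm10 but give them no role. The authors deposited raw UMI counts per cell with library, cell type and cluster labels. Their quality table, as deposited, gives a ribosomal percent and a total, a signal with decimals, and a deposited mean per gene is a score that enters no test. The authors' ribosomal percent followed the members' percent of counts across cells (r = 0.9997). No doublet call was added.

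Counts were summed per library and type, leaving out libraries with fewer than 10 cells of a type. A type needed 2 libraries in every group. Ependymal cells, fibroblasts and progenitors missed this, 9 types remained, and pericytes lack PBS stim replicate 1. edgeR 4.0.16 in R 4.3.3 fitted group and batch (replicate 1 against the others) to all 12 libraries, with TMM and filterByExpr. P-values were adjusted by Benjamini-Hochberg over all genes of a type and comparison, and the threshold was 0.05. Values of single members in comparisons are TMM-normalized CPM, and levels across types are CPM of the library and type total. The code was tested on simulated counts. DESeq2 1.42.0, limma 3.58.1 (voom), other scalings, filters, batch terms and left-out libraries were alternatives. Shared 31-base words were taken from the last 500 bases of a gene's transcripts and sought in transcripts of other genes of the GRCm38 annotation.

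The members and lists were chosen with earlier results of these data known. Named members are up to 4 called per type and comparison by adjusted p, every called member where a comparison made under 10 calls, and the 5 most and 5 least variable across types. Some genes that the rule gives are not reported here. Members named beyond this rule were chosen after their values were seen. Libraries are the replicates, and no label says that those of a group came from separate experiments. The submitters' labels give 2 counts of animals for replicate 1, and the series' own was used.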

Additional observations from a re-analysis of the deposited data

How the results depend on the processing

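Without stimulation, cisplatin gave 12 member calls, all in microglia. The count over all types was 29 with DESeq2, 20 without TMM, 19 without a filter on low counts, 94 with the second batch alone (67 of them in choroid plexus and 15 in microglia), and 0 without a batch term, with the ribosomal RNA-like share as a covariate or without the second-batch PBS libraries. Leaving out single libraries gave 2 to 19. In microglia alone it was 21 with DESeq2, 20 without TMM, 2 in cluster 5 alone and 0 in the same 3 fits, and 2 to 19 without single libraries.

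With stimulation, 65 member calls over all types became 128 with DESeq2, 120 with limma-voom, 180 with the second batch alone (71 in neurons, 66 in choroid plexus and 32 in microglia), 24 with the covariate, 12 without a batch term, 2 without the second-batch PBS libraries, and 12 to 107 without single libraries. These totals count both directions. In the second batch alone, 4 oligodendrocyte members were called higher and 4 lower, in this comparison and without stimulation. With stimulation, endothelium had 1 higher and 1 lower there, and OPCs 1 lower. Without the second-batch PBS libraries 1 was higher, in endothelium, and 1 lower, in choroid plexus. The 37 in microglia became 16 with the covariate, 14 in cluster 5 alone, 11 without a batch term, 0 without the second-batch PBS libraries, and 9 to 49 without single libraries. The 21 in neurons became 73 with DESeq2, 72 with limma-voom, 71 with the second batch alone, 49 without a filter, 44 when normalized without the members, 38 without mitochondrially encoded and ribosomal RNA-like transcripts and 6 without TMM. They became 0 without a batch term, with the covariate, in cluster 10 or cluster 12 alone or without the second-batch PBS libraries, and 0 to 73 without single libraries. Among all genes of neurons, edgeR called 397 of 6305 higher in the second batch alone and 203 of 6561 when normalized without the members. It called 0 of 1910 higher in cluster 10 alone, 0 of 5134 in cluster 12 alone and 0 of 6219 without the second-batch PBS libraries. In microglia of the second batch alone it called 450 of 10696 higher with stimulation and 560 without it. The cause of these shifts in counts was not tested.

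Stimulation in cisplatin mice gave 2 member calls in the second batch alone, 1 with a replicate block within drug arms, and 0 to 1 without single libraries, as did the interaction (0 to 1). Stimulation in PBS mice gave 0 to 0 in the fits run. For 17 named values, 346 of 444 alternatives kept the direction and the call, 98 lost the call and 0 reversed. Alternatives with fewer cells or libraries also carry less depth. Omitting TMM moved the median of all genes in neurons by −0.42 with stimulation and −0.30 without it.

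Same-numbered libraries deviated together with mean correlations of 0.286, 0.081 and 0.092 in the cisplatin arm and 0.389, 0.188 and 0.183 in the PBS arm, and 2 of 6 and 4 of 6 libraries correlated best with their own number, so the numbers were not taken to pair them. With the replicate block edgeR made 12 member calls without stimulation, 50 with it, and 7 in neurons. The block within drug arms gives no value for cisplatin against PBS. Neurons could not be fitted without cells over 10% mitochondrial UMIs, nor pericytes without the second-batch PBS libraries.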
